A study of Mus musculus with 14 samples.

Results

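The 36 genes described here encode the proteins that bring fatty acids into cells, activate them and oxidise them in mitochondria and peroxisomes, together with 3 regulators of that programme. They were chosen by symbol from knowledge of the pathway, with earlier results of these data known. All 36 were found among the 55416 genes listed for each library. RNA was sequenced from gastrocnemius, a calf muscle, and from lung of male C57BL/6 (C57BL/6NCrlOri) mice aged 6 to 8 weeks. There were 3 control (CON) and 3 tumour-bearing (TB) gastrocnemius libraries, and 3 control and 5 tumour-bearing lung libraries. The model places cells of the KrasIKKaL line in the airways through the trachea. That step is written identically for every library, so the treatment of the control mice in its place cannot be read from the labels. No library carries a further genotype or treatment in the labels. Separate animals for the libraries of a group are not stated in the labels. The p-values therefore reflect the spread among these libraries alone, part or all of which may be technical. The series sought targets for cachexia, the wasting of muscle in cancer, and for adverse immune reactions in muscle.

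Long-chain fatty acids reach muscle and lung bound to albumin or packed as triglyceride in lipoproteins, from which lipoprotein lipase frees them at the capillary wall. CD36 moves them across the cell membrane, fatty acid binding proteins carry them in the cytosol, and acyl-CoA synthetases activate them. The carnitine shuttle takes the acyl chain into the mitochondrion, where repeated rounds of dehydrogenation, hydration, dehydrogenation and thiolysis cut it to acetyl-CoA. The PPAR receptors switch on much of this set when fatty acids are plentiful, as in fasting, and skeletal and heart muscle use the pathway as a main source of fuel. In the lung, endothelial cells and macrophages take up fatty acids and alveolar type 2 cells use them to build surfactant.

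Values per library are CPM, counts relative to the library's size, scaled within a tissue by TMM, a factor that corrects for differences in RNA composition. They compare libraries of a tissue and not genes with each other. Levels of different genes are compared in the deposited TPM, which is per transcript length. A gene is said to have risen or fallen where the edgeR quasi-likelihood test of tumour-bearing against control gave an adjusted p (Benjamini-Hochberg over all genes tested in that tissue) below 0.05. Changes are log2 of tumour-bearing over control with the standard error (SE). All 36 genes passed the filter on low counts in each fit. Total counts ran from 32476194 to 44169410 in gastrocnemius and from 47947363 to 61087315 in lung, and 3 counts, the most that a count of 0 allows, came to at most 0.0924 CPM before scaling.

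Stretches upstream of 4 of the genes are shown because these genes carry the results below: Pdk4 and Acot1 rose in gastrocnemius and fell in lung, while Acot2 and Ucp3 were high in 1 tumour-bearing gastrocnemius library. Each runs 5′ to 3′ on the gene's strand from 250 to 36 bases before the transcript start in RefSeq, build GRCm38.p6, at chr6:5496314-5496528 (minus strand) for Pdk4, chr12:84009252-84009466 (plus) for Acot1, chr12:83987611-83987825 (plus) for Acot2 and chr7:100472741-100472955 (plus) for Ucp3. Capitals mark CCAAT, or ATTGG where the box lies on the opposite strand, in the first 3 and the nuclear receptor half-site AGGTCA in Ucp3.
Pdk4: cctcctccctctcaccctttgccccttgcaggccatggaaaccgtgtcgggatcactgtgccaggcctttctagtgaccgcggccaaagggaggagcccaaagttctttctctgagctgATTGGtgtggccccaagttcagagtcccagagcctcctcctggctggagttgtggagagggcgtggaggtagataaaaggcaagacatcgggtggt
Acot1: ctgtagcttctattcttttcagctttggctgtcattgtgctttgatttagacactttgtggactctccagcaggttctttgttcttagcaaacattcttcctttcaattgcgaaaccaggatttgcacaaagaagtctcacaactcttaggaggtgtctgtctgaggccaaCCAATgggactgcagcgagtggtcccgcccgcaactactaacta
Acot2: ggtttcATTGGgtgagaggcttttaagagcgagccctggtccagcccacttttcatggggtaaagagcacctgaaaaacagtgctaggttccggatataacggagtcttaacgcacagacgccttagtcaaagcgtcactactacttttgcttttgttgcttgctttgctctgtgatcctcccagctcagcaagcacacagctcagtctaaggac
Ucp3: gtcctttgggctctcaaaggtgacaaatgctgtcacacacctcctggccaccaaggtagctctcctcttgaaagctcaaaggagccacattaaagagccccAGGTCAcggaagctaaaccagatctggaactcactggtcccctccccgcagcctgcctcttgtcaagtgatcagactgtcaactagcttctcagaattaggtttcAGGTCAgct
The table held windows for 29 of the 36 genes, and the 250 bases before each start were searched on both strands for 7 motifs. The full PPAR element DR1, AGGTCANAGGTCA, was in 0.0335% of all 32851 windows and in none of the 29 genes. Its looser form AGGNCANAGGNCA, which contains it, was in 0.338% of windows and in none of the 29. The glucocorticoid element GNACANNNTGTNC (0.387% of windows), the FoxO motif GTAAACA (3.17%) and the E-box CACGTG (6.02%) were also in none of them. The half-site AGGTCA, which is contained in DR1, was in 14.02% of windows and in Cd36, Cpt1a, Acadm, Acadvl and Ucp3. CCAAT was in 33.8% of windows and in 14 of the 29 genes. These matches describe the letters of these windows only.

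In control tissue some of the genes had very different TPM in muscle and lung and others had like TPM. Fabp3, the cytosolic binding protein of heart and muscle, was the most abundant of the 36 in control gastrocnemius at 685 ± 478 TPM (SD, n = 3) against 50.7 ± 22.2 in control lung (n = 3). Cd36, the membrane transporter, led in lung at 758 ± 44.5 TPM against 30.96 ± 15.2 in gastrocnemius. Ucp2, an uncoupling protein found in many tissues, followed in lung at 475 ± 36.1 TPM and had 3.67 ± 0.837 in gastrocnemius. Lpl, the lipase of the capillary wall, had 98.2 ± 40.9 TPM in gastrocnemius and 97.4 ± 5.79 in lung, and the kinase gene Pdk4 had 26.5 ± 20.2 and 29.2 ± 1.09. These contrasts are descriptions without a test. TPM is a share of the library, and 12 muscle fibre markers alone took 40865 to 85710 TPM in control gastrocnemius, against 55.2 to 133 in control lung. Like TPM in both tissues therefore does not show a like level. The control libraries of the tissues overlapped for 15 of the 36 genes and did not overlap for 21 (58.3%), against 88.0% of the 19834 genes of the fit of all 14 libraries. All lung controls lay above all gastrocnemius controls for 14 of the 36, against 80.9% of all genes, and below them for 7, against 7.16%.

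**Figure D1:**
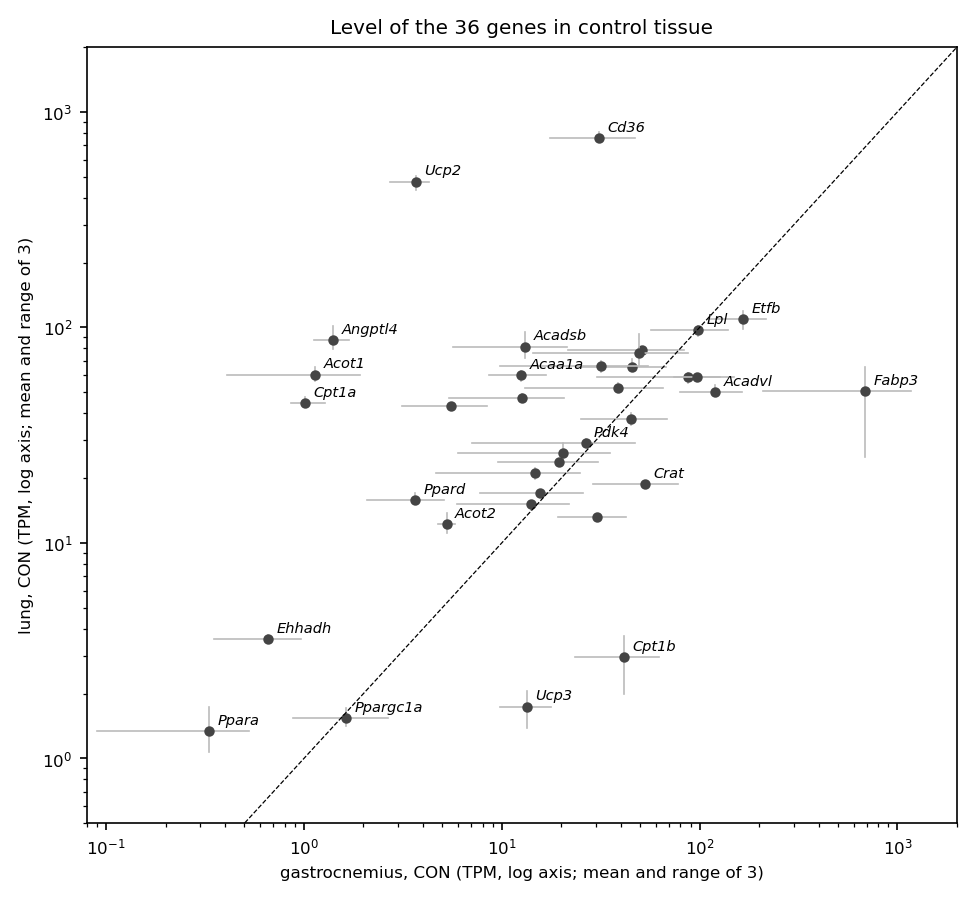
Mean TPM of each of the 36 genes in control gastrocnemius (horizontal, log axis) against control lung (vertical, log axis), with grey lines for the range of 3 libraries in each tissue and a dashed line of equal TPM. Cd36 and Ucp2 lie far above the line, and Fabp3, Cpt1b and Ucp3 lie below it.

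Paired isoforms divided by tissue. Cpt1a and Cpt1b encode the liver and muscle forms of carnitine palmitoyltransferase 1, the rate-limiting step of entry into mitochondria. Cpt1a made up 2.65% ± 0.952 of their summed TPM in control gastrocnemius (n = 3) and 93.7% ± 2.02 in control lung (n = 3). In tumour-bearing tissue the share was 3.24% ± 1.71 in gastrocnemius (n = 3) and 90.8% ± 4.01 in lung (n = 5). Ucp2 made up 21.8% ± 3.62 of the Ucp2 and Ucp3 sum in control gastrocnemius and 99.6% ± 0.0546 in control lung. In tumour-bearing tissue that share was 22.9% ± 2.04 in gastrocnemius and 99.9% ± 0.0464 in lung. The thioesterases divided by tissue in the controls, where Acot1 made up 16.7% ± 8.56 of the Acot1 and Acot2 sum in gastrocnemius and 83.2% ± 0.464 in lung. In tumour-bearing tissue its share was 37.2% ± 20.4 in gastrocnemius and 29.9% ± 16.1 in lung.

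Some of these values rest on reads that several genes share, which RSEM divides by estimate. In GENCODE M21 transcripts, 91.1% of the 100-base windows of Cpt1b were also in Gm44502, 65.2% of those of Etfb in Gm45233, and 52.8% of those of Hadhb in Gm13910. Windows shared with other genes made up 21.9% for Acot1, of which most were in Acot2, and 17.1% for Acot2, all in Acot1. The figure was 21.7% for Fabp3 (the pseudogene Fabp3-ps1), 21.6% for Acaa1a (Acaa1b) and 1.34% for Eci2 (Eci3). The values of these 8 genes are therefore less certain than those of the other 28.

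In gastrocnemius, 4 of the 36 genes rose with the tumour, 1 fell and 31 did not pass the test. Those 5 are 13.9% of the set, while 15.3% of all 14373 genes tested passed. The genes that rose were Acot1, Eci2, Pdk4 and Ppard (8.53% of all genes rose), and the gene that fell was Acaa2 (6.75% of all genes fell). The median change of the 36 was 0.16, and that of all genes tested was -0.03. Under upper-quartile scaling the median of the 36 was -0.07, and that of all genes was -0.25. That scaling also turned the split over all genes from 1226 higher and 970 lower to 760 and 1079. Tumour-bearing and control libraries did not overlap for 11 of the 36 genes (30.6%), against 43.1% of all genes. All tumour-bearing libraries lay above all controls for 7 of them, against 21.1% of all genes, and below them for 4, against 22.0%. The unadjusted p was below 0.05 for 11 of the 36, against 35.7% of all genes.

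**Figure D2:**
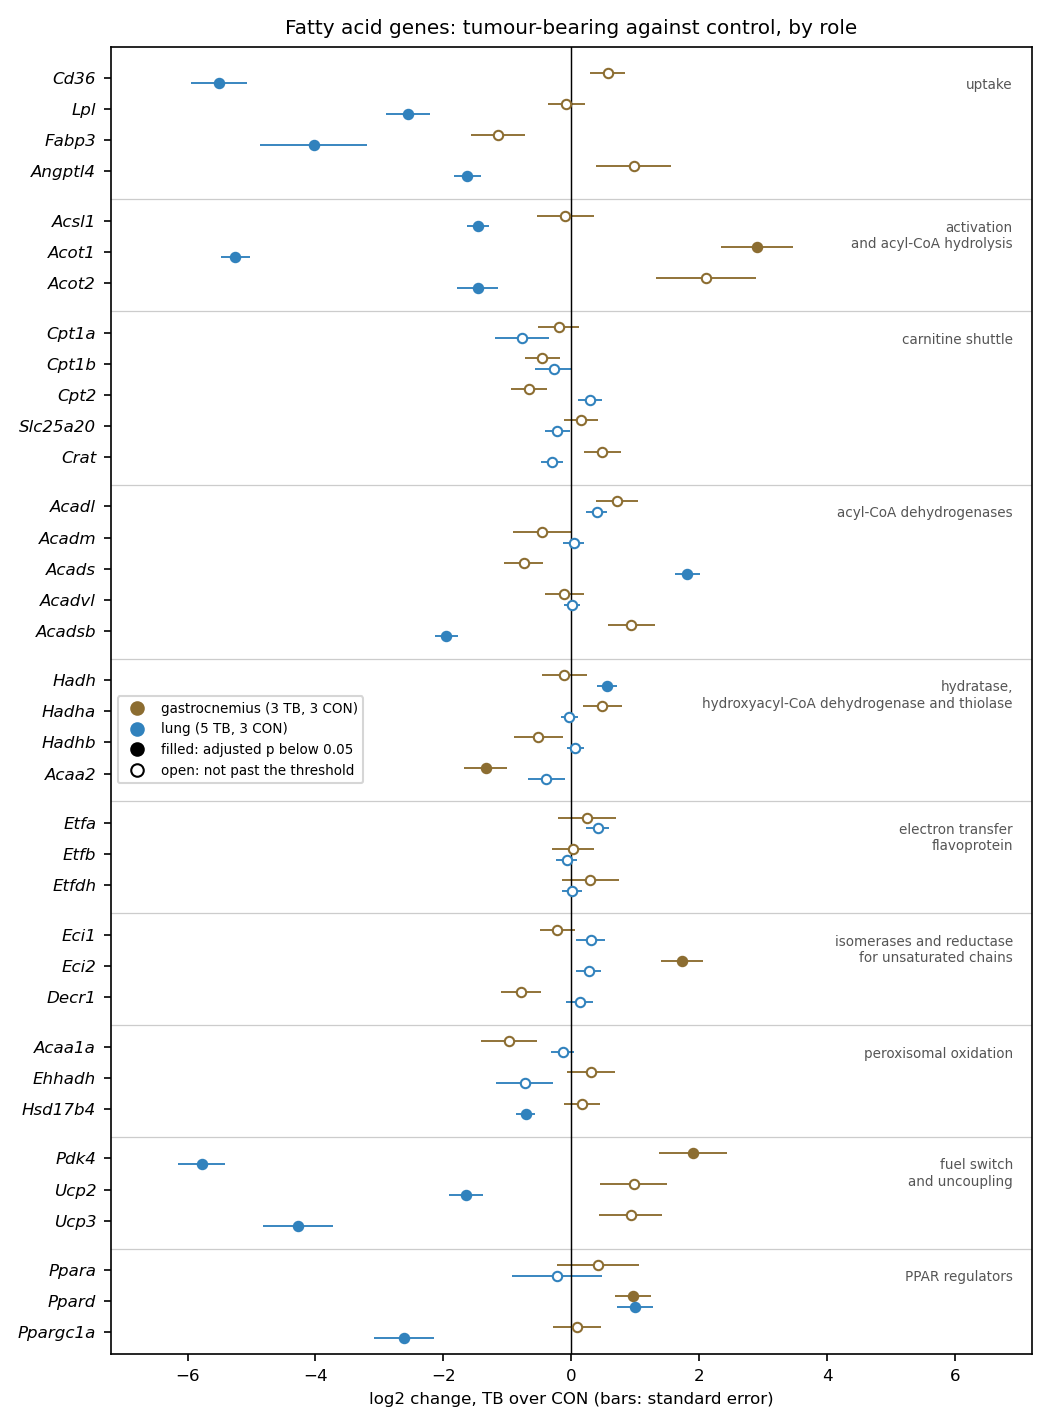
Log2 change of tumour-bearing over control (horizontal) for the 36 genes, grouped by role, in gastrocnemius (brown, 3 against 3 libraries) and lung (blue, 5 against 3), with bars for the standard error and filled points for an adjusted p below 0.05. All 7 uptake and activation genes lie left of 0 in lung. Most points of the carnitine shuttle and the mitochondrial oxidation steps lie near 0 in lung. In gastrocnemius these points are spread on both sides of 0, from -1.34 to 1.73.

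Pdk4 encodes a kinase that shuts off pyruvate dehydrogenase and so turns muscle from glucose to fat as fuel. It stood at 156, 119 and 45.2 CPM in the control gastrocnemius libraries and at 501, 182 and 516 in the tumour-bearing ones. Each tumour-bearing library was above each control, with replicate 2 closest to them. The change was 1.90 (SE 0.53, adjusted p = 0.0438). Acot1, a cytosolic acyl-CoA thioesterase that releases fatty acid from its CoA ester, had 1.2, 1.29 and 0.418 CPM in controls and 10.5, 3.06 and 8.61 in tumour-bearing libraries. It was low in controls and without overlap, with a change of 2.90 (SE 0.56, adjusted p = 0.0167).

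Eci2, an isomerase of mitochondria and peroxisomes that prepares unsaturated chains for oxidation, had 22.2, 18.9 and 11.3 CPM in controls against 75.6, 46.6 and 52.0. The groups were well apart, and the change was 1.73 (SE 0.34, adjusted p = 0.0170). Ppard, the PPAR receptor that drives fat oxidation genes in skeletal muscle, had 15.8, 17.0 and 12.9 CPM in controls and 38.9, 26.7 and 23.9 in tumour-bearing libraries. It changed by 0.97 (SE 0.28, adjusted p = 0.0490), just inside the threshold. Acaa2, the mitochondrial thiolase that ends each round of oxidation, went the other way. It had 94.2, 91.5 and 66.6 CPM in controls and 22.5, 48.4 and 29.0 in tumour-bearing libraries, a change of -1.34 (SE 0.34, adjusted p = 0.0338).

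These 5 calls rested on all 3 control libraries. Without control replicate 1, 2 or 3, none of the 36 genes passed the test in gastrocnemius, and 243, 141 and 106 of all genes did. With control replicate 3 left out, Acot1 was at 2.56 (adjusted p = 0.0777), Eci2 at 1.49 (0.0826), Pdk4 at 1.53 (0.135), Ppard at 0.86 (0.178) and Acaa2 at -1.48 (0.0909). Without control replicate 1 or 2 the changes were as large or nearly so, at 3.10 and 3.14 for Acot1, 1.95 and 1.78 for Eci2, 2.29 and 1.98 for Pdk4, 1.01 and 1.05 for Ppard and -1.24 and -1.27 for Acaa2. Their adjusted p then ran from 0.0569 (Eci2, without replicate 1) to 0.159 (Ppard, without replicate 2). Without tumour-bearing replicate 1 or 3 the number of the 36 that passed was 2, and without tumour-bearing replicate 2 it was 8. Of all genes, 9.71% passed without tumour-bearing replicate 1, 7.62% without replicate 3 and 30.5% without replicate 2.

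**Figure D3:**
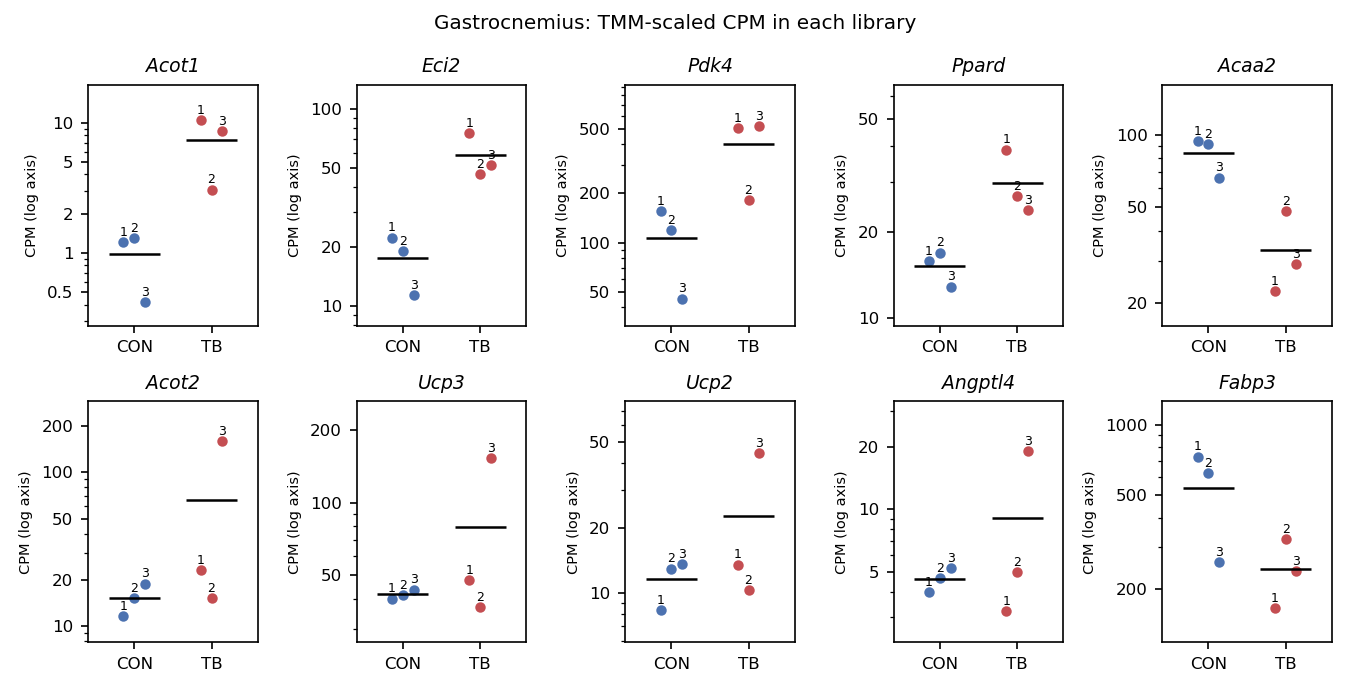
TMM-scaled CPM (log axes) of 10 genes in each gastrocnemius library, with replicate numbers beside the points and black lines at group means of 3 CON (blue) and 3 TB (red) libraries. Acot1, Eci2, Pdk4 and Ppard are higher and Acaa2 is lower in every tumour-bearing library. Acot2, Ucp3, Ucp2 and Angptl4 are by far the highest in tumour-bearing replicate 3.

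Of the other uptake and activation genes, none passed the test in gastrocnemius. Fabp3 had 731, 621 and 259 CPM in controls and 165, 326 and 237 in tumour-bearing libraries. Control replicate 3 lay within the tumour-bearing range, and the change of -1.15 (SE 0.43) had an unadjusted p of 0.0245 and an adjusted p of 0.0926. Cd36 had 134, 118 and 104 CPM in controls and 218, 136 and 174 in tumour-bearing libraries, without overlap, and a change of 0.57 (SE 0.28, adjusted p = 0.174). Lpl overlapped between groups, at 441 to 569 CPM in controls and 381 to 567 in tumour-bearing libraries. Acsl1, the main synthetase that activates long chains in muscle, ran from 44.0 to 129.7 CPM in controls and from 59.9 to 131 in tumour-bearing libraries, with a change of -0.09 (SE 0.44, adjusted p = 0.894).

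A group of 4 genes, picked out after their values were seen, was high in tumour-bearing gastrocnemius replicate 3. Acot2, the mitochondrial relative of Acot1, had 11.6, 15.3 and 18.9 CPM in controls and 23.1, 15.2 and 159 in tumour-bearing libraries. Ucp3, the uncoupling protein of skeletal muscle, had 40.1 to 43.7 CPM in controls and 48.0, 36.9 and 154. Ucp2 had 8.32 to 13.6 CPM in controls and 13.5, 10.3 and 44.7. Angptl4, a secreted inhibitor of lipoprotein lipase and a PPAR target, had 3.98 to 5.21 CPM in controls and 3.22, 4.97 and 19.1. In each of the 4 genes replicate 3 was more than 2 times the highest of the other 5 libraries, 6.9 times for Acot2 and 3.20 times for Ucp3. Those 4 are 11.1% of the 36 genes, and 1.62% of all genes tested in gastrocnemius stood that far above the other 5 libraries there. Since the library and the genes were picked from these same values, the shares are a description and not a test. With all libraries the changes were 2.11 (SE 0.78, adjusted p = 0.0912) for Acot2, 0.93 (SE 0.49, 0.204) for Ucp3, 0.97 (SE 0.52, 0.211) for Ucp2 and 0.97 (SE 0.59, 0.259) for Angptl4. Without replicate 3 they were 0.34, 0.03, 0.05 and -0.16.

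The carnitine shuttle did not pass the test in any of its 5 genes in gastrocnemius. Cpt2, the second transferase of the shuttle, had 54.6, 49.8 and 37.2 CPM in controls and 30.2, 36.2 and 22.9 in tumour-bearing libraries. It was lower in each of the latter, with a change of -0.66 (SE 0.28, unadjusted p = 0.0419, adjusted p = 0.126). Crat, which exchanges acetyl groups between carnitine and CoA and was the most abundant of the 5 in TPM, had 172 to 243 CPM in controls and 254 to 385 in tumour-bearing libraries (0.48, SE 0.29, adjusted p = 0.255). Cpt1b had 124 to 164 CPM in controls and 78.8 to 124 in tumour-bearing libraries, just without overlap. Slc25a20, the carrier of the inner membrane, and Cpt1a overlapped between groups.

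The oxidation steps inside the mitochondrion moved in no common direction in gastrocnemius. The shuttle, the acyl-CoA dehydrogenases, the hydratase to thiolase steps, the electron transfer flavoprotein and the isomerases and reductase were counted together. Of their 20 genes 1 rose (Eci2), 1 fell (Acaa2) and 18 did not pass, where 8.53% of all genes rose and 6.75% fell. The median change of the 20 was -0.11. It was -0.33 with upper-quartile scaling, 0.12 on log2(TPM + 1) and -0.23 to 0.04 with each library left out. Acads, the short-chain dehydrogenase, had 36.6, 35.3 and 19.8 CPM in controls and 15.2, 20.3 and 19.2 in tumour-bearing libraries (-0.75, SE 0.31, adjusted p = 0.117). Acadsb, the dehydrogenase of short branched chains, had 54.0, 43.1 and 29.0 CPM in controls and 100.1, 95.3 and 46.4 in tumour-bearing libraries (0.94, SE 0.36, adjusted p = 0.102). These dehydrogenases thus differed in sign and neither passed. Decr1, the reductase for unsaturated chains, had 71.4, 54.4 and 41.8 CPM in controls and 25.4, 43.1 and 28.5 in tumour-bearing libraries (-0.79, SE 0.31, adjusted p = 0.108). Acadvl, the very-long-chain dehydrogenase, overlapped between groups at 87.9 to 169 CPM in controls and 119 to 139 in tumour-bearing libraries (-0.11, SE 0.30, adjusted p = 0.813). Etfb, a subunit of the flavoprotein that takes the electrons, had 144 to 165 CPM in controls and 89.5 to 204 in tumour-bearing libraries, with a change of 0.03 (SE 0.33, adjusted p = 0.961). Acadl, the long-chain dehydrogenase, had 144, 123 and 73.4 CPM in controls and 234, 152 and 170.1 in tumour-bearing libraries, without overlap (0.71, SE 0.33, unadjusted p = 0.0569, adjusted p = 0.152). Acadm, Hadh, Hadha, Hadhb, Etfa, Etfdh and Eci1 overlapped between groups.

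The 3 peroxisomal genes did not pass in gastrocnemius. Acaa1a, the peroxisomal thiolase and the most abundant of them, had 26.2 to 27.4 CPM in controls and 5.46, 21.4 and 14.1 in tumour-bearing libraries (-0.97, SE 0.43, adjusted p = 0.141). Ehhadh and Hsd17b4, its bifunctional enzymes, overlapped between groups. Of the regulators, Ppargc1a, the coactivator that drives mitochondrial biogenesis, had 10.9 to 16.3 CPM in controls and 8.22 to 22.1 in tumour-bearing libraries (0.09, SE 0.38, adjusted p = 0.881). Ppara, the PPAR receptor best known from liver, was low at 0.418 to 1.61 CPM in controls and 0.463 to 2.29 in tumour-bearing libraries.

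The control gastrocnemius libraries differed among themselves across most of the set. Replicate 3 was the lowest control for 30 of the 36 genes (83.3%), and for 41.6% of all genes tested. Replicate 1 was the highest for 26 of them (72.2%), and for 38.6% of all genes. Genes of the mitochondrial genome took 16.2, 26.7 and 34.1% of the counts of control replicates 1, 2 and 3, and 17.6, 19.0 and 24.0% in the tumour-bearing libraries, and the part of this share in the results was not tested. The summed CPM of the 36 genes was 3980.5, 3601 and 2291 in the control libraries and 3825, 3105 and 3561 in the tumour-bearing ones. Markers of slow muscle fibres, which are rich in mitochondria, followed the same order among the controls only. Their summed CPM was 4732, 4094 and 1362 in control replicates 1, 2 and 3. In the tumour-bearing libraries it was 2338, 2265 and 2184. All 9 slow fibre markers were detected and none of them passed the test. Of 9 fast fibre markers 2 rose, and their summed CPM was 66261 to 74460 in controls and 79139 to 112107 in tumour-bearing libraries, without overlap. The part of either fibre type in the results for fatty acid genes was not tested. The 12 general markers of muscle fibres were detected in every group, at 82689 to 97017 summed CPM in controls and 73215 to 125621 in tumour-bearing libraries. Without control replicate 3 the change of Fabp3 was -1.48 (adjusted p = 0.0886). The 10 heart muscle markers summed to 802, 753 and 324 CPM in the controls and 163, 279 and 250 in the tumour-bearing libraries. Of the 6 tested, 1 fell and 5 did not pass, and their part in the Fabp3 values was not tested. The fibroblast markers fell in 6 of 8 genes in gastrocnemius, with summed CPM of 719 to 1585 in controls and 366 to 998 in tumour-bearing libraries, and their part was not tested either. All 3 tested alveolar macrophage markers rose there, from 3.05 to 5.17 summed CPM over the 6 in that list to 13.3 to 22.8. These sums are low, and the other 3 genes of the list were not tested. Of 9 general markers of macrophages and monocytes, 1 rose and 8 did not pass, with a median change of -0.32. Their summed CPM overlapped, at 72.4 to 91.5 in controls and 72.3 to 118 in tumour-bearing libraries. In bulk tissue, fewer cells of a type and less RNA per cell cannot be told apart.

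In lung the picture was different. Of the 36 genes 13 fell, 3 rose and 20 did not pass the test. On log2(TPM + 1) with limma 23 fell and 1 rose, with 14 of the 16 calls shared, and over all genes 7994 fell and 3594 rose on that scale. Those 16 are 44.4% of the set, against 59.7% of all 19300 genes tested. Of all genes 30.4% rose and 29.3% fell, and of the set 8.33% rose and 36.1% fell. The groups did not overlap for 16 of the 36 genes, against 63.0% of all genes, and the unadjusted p was below 0.05 for 18 of them, against 63.8%. The median change was -0.25, and that of all genes was 0.07. All 4 uptake genes, all 3 activation and hydrolysis genes and all 3 genes of fuel switch and uncoupling fell. Of the 20 genes of the shuttle and mitochondrial oxidation, 2 rose, 1 fell and 17 did not pass, with a median of 0.03. On log2(TPM + 1), where the median of all genes was -0.23, 1 of these 20 rose and 9 fell with a median of -0.38.

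**Figure D4:**
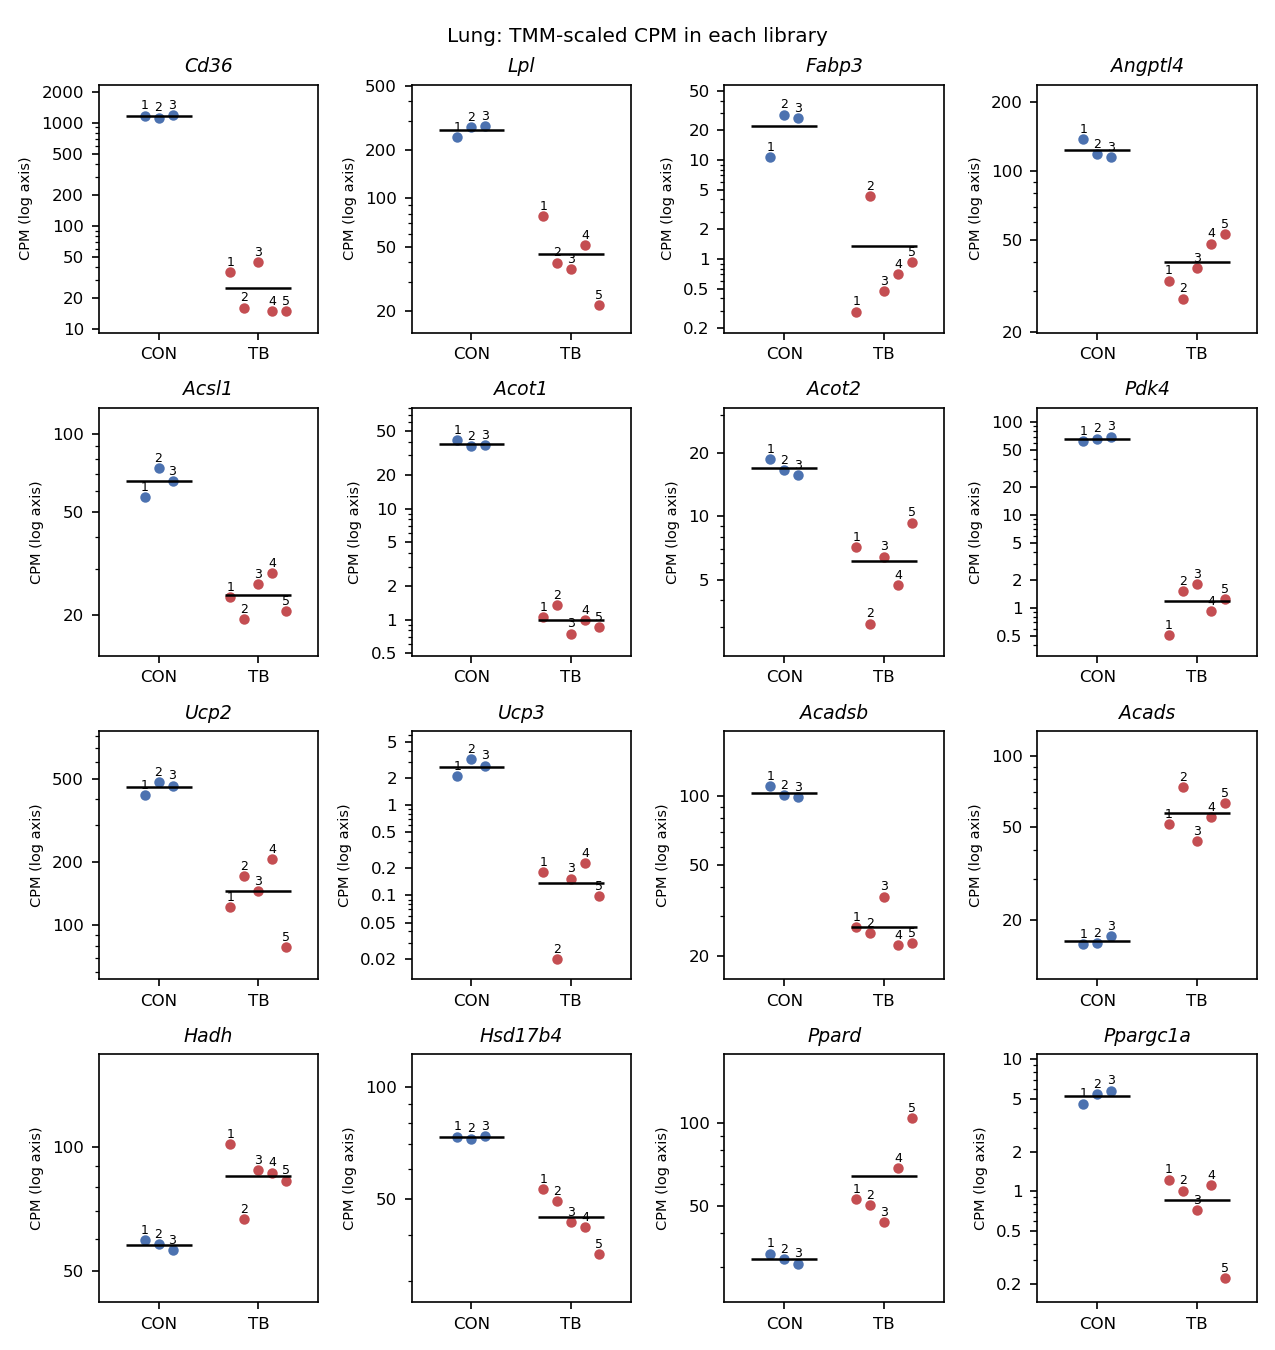
TMM-scaled CPM (log axes) of the 16 genes that passed the test in lung, in each library, with replicate numbers beside the points and black lines at group means of 3 CON (blue) and 5 TB (red) libraries. The groups do not overlap in any panel, and only Acads, Hadh and Ppard are higher in the tumour-bearing libraries.

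Cd36 stood at 1170.2, 1116 and 1175 CPM in control lung and at 35.9, 16.2, 44.5, 15.1 and 15.0 in tumour-bearing lung. All 5 tumour-bearing libraries were below 50 CPM. The change was -5.51 (SE 0.43, adjusted p = 1.41e-05), or 45.6 times lower. Lpl had 239, 275 and 279 CPM in controls and 77.2, 39.7, 36, 50.8 and 21.5 in tumour-bearing libraries, again far apart, with a change of -2.55 (SE 0.34, adjusted p = 0.000234). Angptl4, its inhibitor, had 138, 119 and 115 CPM in controls and 27.8 to 53.3 in tumour-bearing libraries (-1.63, SE 0.21, adjusted p = 0.000216).

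Fabp3 had 10.6, 28.9 and 26.7 CPM in control lung and 0.295, 4.35, 0.477, 0.704 and 0.930 in tumour-bearing lung, where replicate 2 was the highest. The change was -4.03 (SE 0.83, adjusted p = 0.00272), and -5.19 (adjusted p = 8.13e-05) without tumour-bearing replicate 2. Heart muscle genes were likewise lowest of the controls in replicate 1 and highest of the tumour-bearing libraries in replicate 2. Their summed CPM over 10 genes was 343, 888 and 852 in controls and 88.5, 394, 188, 96.0 and 342 in tumour-bearing libraries, and 8 of the 10 fell. Myh6, the myosin of the atrium, ran from 134 to 249 CPM in controls and stood at 15.7 in tumour-bearing replicate 2 against at most 0.0491 in the other 4, and no heart marker was at 0 in all 5. The part of heart muscle RNA in the Fabp3 result was not tested.

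Activation and hydrolysis fell together in lung. Acot1 had 41.2, 36.3 and 37.1 CPM in controls and 0.750 to 1.35 in tumour-bearing libraries, tight within both groups, with a change of -5.25 (SE 0.23, adjusted p = 1.02e-06). Acot2 had 18.6, 16.5 and 15.7 CPM in controls and 7.10, 3.10, 6.42, 4.72 and 9.30 in tumour-bearing libraries (-1.47, SE 0.32, adjusted p = 0.00390). Acsl1 had 57.0, 73.7 and 65.7 CPM in controls and 19.3 to 29.0 in tumour-bearing libraries (-1.46, SE 0.17, adjusted p = 0.000117).

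Pdk4 had the largest fall of the 36 genes in lung. It stood at 62.5, 66.6 and 69.9 CPM in controls and at 0.507, 1.53, 1.81, 0.932 and 1.25 in tumour-bearing libraries, a change of -5.78 (SE 0.37, adjusted p = 5.03e-06), or 55.0 times lower. Ucp2, the second most abundant of the set in control lung, had 419, 482 and 464 CPM there and 123, 172, 146, 207 and 79.0 in tumour-bearing lung (-1.65, SE 0.27, adjusted p = 0.000780). Ucp3 was low even in control lung, at 2.08, 3.21 and 2.74 CPM, and reached at most 0.228 in tumour-bearing lung, with 0.0198 in replicate 2 (-4.27, SE 0.55, adjusted p = 0.000188). The 12 general markers of muscle fibres summed to 47.6, 98.7 and 94.5 CPM in control lung and 3.25 to 10.6 in tumour-bearing lung. Of the 8 tested, 6 fell and 1 rose. The sum of 9 fast fibre markers went the other way, from 3.21 to 4.36 CPM to 9.49 to 18.5. The part of muscle RNA in the Ucp3 result was not tested.

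The regulators went different ways in lung. Ppargc1a had 4.6, 5.42 and 5.79 CPM in controls and 1.23, 1.01, 0.716, 1.12 and 0.220 in tumour-bearing libraries (-2.61, SE 0.47, adjusted p = 0.00127). Ppard rose, from 33.6, 32.1 and 31 CPM to 53.0, 50.5, 43.7, 68.9 and 104, with replicate 5 the highest (0.99, SE 0.28, adjusted p = 0.0139). Ppara had 2.23 to 2.59 CPM in controls and 0.337 to 5.28 in tumour-bearing libraries, on both sides of the controls (-0.22, SE 0.70, adjusted p = 0.797).

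Among the mitochondrial enzymes of lung, Acads and Acadsb moved in opposite directions. Acads had 15.8, 16.0 and 17.1 CPM in controls and 51.2, 73.9, 43.4, 55.0 and 63.1 in tumour-bearing libraries (1.81, SE 0.20, adjusted p = 7.61e-05). Acadsb had 111, 101 and 98.8 CPM in controls and 22.4 to 36.4 in tumour-bearing libraries (-1.95, SE 0.18, adjusted p = 2.91e-05). Hadh, the short-chain hydroxyacyl-CoA dehydrogenase, had 59.5, 58.1 and 56.3 CPM in controls and 66.8 to 101 in tumour-bearing libraries (0.55, SE 0.15, adjusted p = 0.0118). Without control replicate 2 or 3, Hadh (adjusted p = 0.0523 and 0.0591) and Ppard (0.0510 and 0.0548) no longer passed.

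The other 17 mitochondrial genes of lung did not pass. Cpt1a, the most abundant of the shuttle there, had 129, 122 and 124 CPM in controls and 78.9, 32.7, 42.0, 63.2 and 148 in tumour-bearing libraries (-0.78, SE 0.43, adjusted p = 0.144). Its tumour-bearing libraries lay on both sides of the controls. Hadha, the alpha subunit of the trifunctional protein, had 107 to 115 CPM in controls and 91.5 to 122 in tumour-bearing libraries, with a change of -0.03 (SE 0.13, adjusted p = 0.849). Etfb had 44.1 to 54.1 CPM in controls and 41.0 to 59.7 in tumour-bearing libraries (-0.07, SE 0.16, adjusted p = 0.710). Eci2, called in gastrocnemius, had 33.6 to 34.5 CPM in control lung and 31.2 to 52.4 in tumour-bearing lung (0.27, SE 0.20, adjusted p = 0.277). Acadl had 91.9 to 95.5 CPM in controls and 134, 126, 89.7, 128 and 134 in tumour-bearing libraries, all but replicate 3 above the controls (0.39, SE 0.16, adjusted p = 0.0605). Etfa, the other flavoprotein subunit, had 45.0 to 53.0 CPM in controls and 49.9 to 83.4 in tumour-bearing libraries (0.41, SE 0.18, adjusted p = 0.0743). The other 11, Cpt1b, Cpt2, Slc25a20, Crat, Acadm, Acadvl, Hadhb, Acaa2, Etfdh, Eci1 and Decr1, overlapped between groups, with changes from -0.39 (Acaa2) to 0.30 (Eci1).

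Of the peroxisomal genes, Hsd17b4 fell in lung, from 73.4, 72.6 and 73.8 CPM to 53.2, 49.2, 43.3, 42.0 and 35.4 (-0.72, SE 0.15, adjusted p = 0.00316). Ehhadh ran from 6.85 to 7.01 CPM in controls and from 1.71 to 6.98 in tumour-bearing libraries. Acaa1a had 63.4 to 68.7 CPM in controls and 49.0 to 76.7 in tumour-bearing libraries (-0.14, SE 0.18, adjusted p = 0.534). Neither of these passed. The summed TPM of the 36 genes was 2662 ± 41.6 in control lung (n = 3) and 944 ± 94.9 in tumour-bearing lung (n = 5). Cd36 and Ucp2 made up a large part of the control sum, at 758 and 475 TPM. They stood at 11.1 and 92.6 TPM in tumour-bearing lung. The sum is therefore not a measure of the mitochondrial genes, most of which did not pass. On log2(TPM + 1) the median change of all genes in lung was -0.23.

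Markers of cell types in lung changed as well, in both directions. All 10 endothelial markers fell, and their summed CPM went from 3610.3 to 3720.5 in controls to 178 to 215 in tumour-bearing libraries. All 7 markers of alveolar type 2 cells and all 6 of alveolar type 1 cells fell, and Sftpc, the surfactant gene that defines type 2 cells, was at 2.48 to 480.1 CPM in tumour-bearing lung, so defining markers of the labelled tissue were low there. Of the adipocyte markers 4 of 8 fell, with summed CPM of 47.8 to 51.3 in controls and 1.41 to 21.1 in tumour-bearing libraries, and Lep was at 0 in all 5. Of 6 alveolar macrophage markers 4 fell, with summed CPM of 485 to 1313 in controls and 50.7 to 1168 in tumour-bearing libraries. Of 9 markers of macrophages and monocytes 3 fell, 1 rose and 5 did not pass, with a median change of 0.0035. Their summed CPM, which the most abundant genes dominate, was 4869 to 5043 in controls and 399 to 942 in tumour-bearing libraries. Of 8 fibroblast markers 4 fell, and neither of the 2 tested brown adipocyte markers passed. All 5 epithelial and all 5 proliferation markers rose, the first from 1227 to 1254 summed CPM to 9849.7 to 18425. Of 5 hepatocyte markers 4 rose and 1 fell, and their summed CPM went from 6.85 to 8.67 to 241 to 2591. The part of any of these cell types in the fatty acid results was not tested.

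The tumour effect differed between the tissues for 16 of the 36 genes (44.4%), by the interaction of tissue and tumour in 1 edgeR fit of all 14 libraries, where 35.6% of 19834 genes passed. The effect was lower in lung than in gastrocnemius in 14 of the 36, against 19.0% of all genes, and higher in 2, Cpt2 and Acads, against 16.6%. The median difference over the 36 genes was -0.55, and over all genes -0.05. Acot1 had the widest gap, at -8.13 (SE 0.63, adjusted p = 9.87e-07), followed by Pdk4 at -7.65 (SE 0.71, adjusted p = 3.96e-06). These were the only genes of the 36 that passed in both tissues in opposite directions. Cd36 differed by -6.06 (SE 0.56, adjusted p = 3.77e-06) and Ucp3 by -5.15 (SE 0.68, adjusted p = 6.60e-05).

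The other uptake and uncoupling genes followed the same sign, at -2.47 for Lpl (adjusted p = 0.00106), -2.58 for Angptl4 (0.00531) and -2.60 for Ucp2 (0.00386). Acot2 differed by -3.54 (adjusted p = 0.00513), Acadsb by -2.90 (0.000153), Ppargc1a by -2.69 (0.00380) and Eci2 by -1.45 (0.00806). Acads differed by 2.56 (SE 0.36, adjusted p = 0.000113). The smaller differences of Fabp3 (-2.89, adjusted p = 0.0382), Acsl1 (-1.36, 0.0403), Hsd17b4 (-0.88, 0.0319) and Cpt2 (0.95, 0.0374) each lost their call when any of at least 8 single libraries was left out, with adjusted p up to 0.0974, 0.132, 0.0876 and 0.104. Ppard, the gene that rose in both tissues, differed by 0.02 (SE 0.40, adjusted p = 1.00). Acaa2 (0.93, SE 0.47, adjusted p = 0.14) and Hadh (0.67, SE 0.38, adjusted p = 0.187) did not differ past the threshold either.

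A wider list of 114 genes of the same pathway was counted alongside. In gastrocnemius 103 of them were tested, of which 12 rose (11.7%, against 8.53% of all genes) and 10 fell (9.71%, against 6.75%). The rises with the smallest p were those of Acsl6, an acyl-CoA synthetase (3.16, SE 0.45, adjusted p = 0.00824), Pnpla2, the lipase ATGL that starts the breakdown of stored fat (2.45, SE 0.40, adjusted p = 0.0115), and Nrip1, a corepressor of nuclear receptors (1.46, SE 0.28, adjusted p = 0.0163). Pnpla2 had 125 to 142 CPM in controls and 869.5, 351 and 955 in tumour-bearing libraries. G0s2, the inhibitor of that lipase, fell from 20.4, 15.5 and 10.6 CPM to 2.94, 3.52 and 2.97 (-2.30, SE 0.32, adjusted p = 0.00722). Sirt3, a mitochondrial deacetylase (-1.79, SE 0.34, adjusted p = 0.0160), and Ppargc1b, the relative of Ppargc1a (-1.71, SE 0.35, adjusted p = 0.0188), fell as well.

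Of the 4 ketone body genes, 2 fell in gastrocnemius, Bdh1 by 2.33 (SE 0.51, adjusted p = 0.0236) and Oxct1 by 1.67 (SE 0.38, adjusted p = 0.0260), which encode steps of ketone use. Of 13 genes of malonyl-CoA and AMPK, 2 rose, Acacb (1.47, SE 0.35, adjusted p = 0.0297), which makes the malonyl-CoA that blocks CPT1, and Mlycd (1.46, SE 0.35, adjusted p = 0.0288), which removes it. These 4 genes were named after their values were seen. None of 10 tested genes of other uptake and binding proteins passed. With any single library left out, G0s2 stayed past the threshold and the largest adjusted p of the other 9 lay between 0.0607 (Acsl6, without control replicate 3) and 0.121 (Mlycd). Pnpla2, Nrip1, Sirt3, Oxct1, Acacb and Mlycd lost their call without any of the control replicates 1, 2 or 3, Ppargc1b without control 2 or 3, and Bdh1 without control 1 or 2. Bdh1 and Oxct1 also lost it without tumour-bearing replicate 1 or 3, and Acacb and Mlycd without tumour-bearing replicate 3.

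In lung 110 of the 114 were tested, of which 19 rose (17.3%, against 30.4% of all genes) and 33 fell (30.0%, against 29.3%). Cav1, the coat protein of caveolae (-3.25, SE 0.28, adjusted p = 2.07e-05), Gpihbp1, which holds lipoprotein lipase on capillary endothelium (-2.74, SE 0.24, adjusted p = 2.33e-05), and Acacb (-4.50, SE 0.41, adjusted p = 2.86e-05) had the smallest p among those that fell. Gpihbp1 had 163 to 171 CPM in controls and 14.6 to 34.2 in tumour-bearing libraries. Cav1 is also in the list of alveolar type 1 markers. Prkag1, a subunit of AMPK (1.16, SE 0.13, adjusted p = 8.36e-05), Pdk1, another pyruvate dehydrogenase kinase (2.08, SE 0.26, adjusted p = 0.000167), and Pex7, a peroxisomal import receptor (1.04, SE 0.14, adjusted p = 0.000276), led those that rose. Pdk1 had 20.1, 23.1 and 23.6 CPM in control lung and 58.1 to 129.6 in tumour-bearing lung, opposite in direction to Pdk4.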

How the data were processed

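The authors deposited, for each of 14 libraries, RSEM expected counts and TPM per Ensembl gene. Per the submitters' processing notes, reads were processed with Trim Galore, STAR 2.7.9a and RSEM 1.3.3. The sources used here do not give their settings, the genome build or the strand option. Expected counts were rounded and fitted per tissue with edgeR 4.0.16 in R 4.3.3 (TMM, filterByExpr, quasi-likelihood test, two-sided, threshold 0.05); SE is the absolute change over the square root of F. The script was tested on simulated data. Symbols matched 94.0% of identifiers. The deposited TPM gave levels, summed as listed, and 1 alternative, limma 3.58.1 on log2(TPM + 1). Replicate pairs differed beyond sampling noise (chi-square per degree of freedom 21.3 to 480). Alternatives were RLE and upper-quartile scaling, DESeq2 1.42.0, a filter of 1 CPM on the mean or none, a replicate block, a fit of all 14 libraries, and each library left out. The 36 genes, the wider list (114 of 115 symbols found), the 15 marker lists and the naming rule were chosen with earlier results of these data known. The rule gives per-library values and tests for genes past the threshold, values for others with an unadjusted p below it or most abundant in their role, and ranges or counts for the rest, with up to 3 genes each way per tissue from the wider list.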

Additional observations from a re-analysis of the deposited data

Results flagged for a closer look

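Within the 5 tumour-bearing lung libraries, 1 library stood apart from the other 4 by Dixon's test at the 95% level for 3 of the 36 genes: Fabp3 in replicate 2 at 4.35 CPM, Acadl in replicate 3 at 89.7 CPM and Acaa2 in replicate 1 at 70.2 CPM. Chance alone gives such a gap in about 1 of 20 groups, and 36 values were tested. The other 3 groups have 3 libraries and were not tested in this way.

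The tumour effect differed between the tissues for 16 genes, by the interaction test of edgeR with Benjamini-Hochberg adjustment over all genes. As lung minus gastrocnemius on the log2 scale, the differences were -6.06 for Cd36, -2.47 for Lpl, -2.89 for Fabp3 and -2.58 for Angptl4 among the uptake genes. They were -1.36 for Acsl1, -8.13 for Acot1 and -3.54 for Acot2 in activation and hydrolysis, and -7.65 for Pdk4, -2.60 for Ucp2 and -5.15 for Ucp3 in fuel switch and uncoupling. In the mitochondrial and peroxisomal steps they were 0.95 for Cpt2, 2.56 for Acads, -2.90 for Acadsb, -1.45 for Eci2 and -0.88 for Hsd17b4, and for the regulator Ppargc1a the difference was -2.69.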

How the results depend on the processing

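In lung, 14 of the 16 calls held under all 16 alternatives (Hadh and Ppard did not), and 12 of the 16 differences between the tissues held under all 21. In gastrocnemius, each of the 5 calls was lost under at least 1 of 14 alternatives, and none changed sign. The 2196 genes called there became 3657 with DESeq2, 415 with limma on log2(TPM + 1), 3459 with all 14 libraries in 1 fit and 4031 unfiltered, and ran from 106 to 4513 with each library left out. Of the 36 genes, 3 passed there with upper-quartile scaling, 1 on log2(TPM + 1), 11 unfiltered and 0 to 8 with each library left out. The shares of all genes tested were, in the same order, 12.8%, 2.89%, 15.4% (of 26170 genes) and 0.718% to 30.5%. On log2(TPM + 1) the split over all lung genes was 3594 higher and 7994 lower.

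In gastrocnemius the libraries numbered 1 and those numbered 3 deviated together (r of 0.36 and 0.37) and those numbered 2 did not (-0.05). In lung r was 0.04, 0.06 and -0.001. Since not every pair was over 0.1, the numbers were not taken to pair the libraries. With the replicate block, 3303 genes passed in gastrocnemius (6 of the 36), 10298 in lung (16) and 6470 for the difference (16). In gastrocnemius not every library correlated best with its own number.

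Of the genes that did not pass, 15 of 31 in gastrocnemius, 12 of 20 in lung and 9 of 20 for the difference changed sign under at least 1 alternative, and none of those that passed did; the cause was not tested. Those whose change is given above had these values. In gastrocnemius, Etfb was at -0.17 with upper-quartile scaling, -0.023 with a mean of at least 1 CPM, -0.052 with the replicate block and -0.037 with all 14 libraries, Ppargc1a at -0.17 with upper-quartile scaling and -0.0077 with the replicate block, and Acsl1 at 0.078 on log2(TPM + 1). With each library left out, Etfb ran from -0.21 to 0.32, Ppargc1a from -0.38 to 0.37, Acsl1 from -0.49 to 0.23, Acadvl from -0.35 to 0.079, Ppara from -0.063 to 0.87 and Angptl4 from -0.16 to 1.40. In lung, on log2(TPM + 1), Acadl was at -0.066, Etfa at -0.045 and Eci2 at -0.24, and with each library left out Hadha ran from -0.059 to 0.025 and Ppara from -0.93 to 0.071. The difference of Ppard was -0.44 on log2(TPM + 1), -0.34 with the replicate block and -0.00058 unfiltered, and ran from -0.14 to 0.24 with each library left out, while that of Hadh was -0.013 on log2(TPM + 1).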

Other observations

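Some of the groups within the wider pathway list gave these counts. In lung, 6 of 15 other uptake and binding genes rose and 5 fell, 3 of 20 tested peroxisomal genes rose and 6 fell, and 2 of 20 tested PPAR pathway regulators rose and 6 fell. Of 14 other mitochondrial oxidation genes there, 2 rose and 4 fell. Of all genes in lung 30.4% rose and 29.3% fell. In gastrocnemius, 4 of 21 of those regulators rose and 4 fell, 1 of 18 tested peroxisomal genes rose and 2 fell, and 2 of the 14 mitochondrial oxidation genes rose and none fell, where 8.53% of all genes rose and 6.75% fell.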
